A study of Homo sapiens with 30 samples.

Results

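The regions described here carried an ATAC-seq peak in human pluripotent stem cells and in the definitive ectoderm made from them within a day, and no peak in any neural population taken later. They were chosen by merging the peaks of 10 deposited peak lists on chromosomes 1 to 22 where they overlapped by 1 bp or more. A list was called open at a merged region where it had a peak and closed where it had none. Of 476170 merged regions, 151028 were open in both the hPSC and the DE list, and 13138 of these were closed in all 8 later lists. These 13138 regions made up 2.76% of all merged regions and 8.7% of the regions open in both early lists. Their pattern over the 10 lists was selected on the peaks themselves and is given as a description. Closed means that no peak was listed there, and a site open in fewer cells cannot be told apart from a site less open in each cell.

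All 30 libraries came from H1, an established human embryonic stem cell line, labelled as wild-type, with 3 biological replicates in each of 10 groups and 50000 cells per library. The hPSC group was taken on day 0 in hPSC medium. The DE group was taken on day 1 in definitive ectoderm medium, which held A8301 at 1 µM (an inhibitor of the TGF-beta, activin and NODAL receptors), trametinib at 250 nM (a MEK inhibitor), C59 at 1 µM (an inhibitor of WNT secretion) and LDN193189 at 100 nM (an inhibitor of BMP receptors). On day 2 the anterior neural ectoderm (aNE) had spent its last day in A8301 at 1 µM, LDN193189 at 100 nM and C59 at 1 µM, without trametinib. The posterior neural ectoderm (pNE) had spent it in A8301 at 1 µM, LDN193189 at 100 nM, TTNPB at 50 nM (a retinoic acid receptor agonist), FGF2 at 20 ng/mL and XAV939 at 1 µM (a tankyrase inhibitor that lowers WNT signalling). Both day 2 populations were replated as single cells with thiazovivin after DE. The 6 day 4 groups were aNE or pNE cells moved on to telencephalon, midbrain or hindbrain medium (aNE_T, aNE_M, aNE_H, pNE_T, pNE_M and pNE_H). Their media are described here only by these names. DE had thus been without the stem cell medium for a single day, and every later group had passed through both the DE medium and the replating.

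ATAC-seq uses the Tn5 transposase to insert sequencing adapters where DNA is free of nucleosomes, so that its peaks mark active or poised promoters and enhancers. Pluripotent cells hold open many enhancers bound by OCT4 (the product of POU5F1), SOX2 and NANOG, and these sites are known to lose accessibility as cells leave pluripotency. OCT4 binds the octamer as well as a composite element in which a SOX site stands beside an octamer-like site. Human embryonic stem cells depend on NODAL or activin and FGF signalling, which the DE medium blocks.

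Each list gave only the positions of peaks, with no score and no value per replicate, so no difference below has a replicate error and none was tested. Intervals in parentheses after shares are Wilson 95% intervals and cover only the counting of regions. On the autosomes the hPSC list had 205831 peaks and the DE list 238994, and the shortest and longest lists were aNE with 162041 and pNE_H with 302355. Median peak width per list lay between 264 and 309 bp and the narrowest peak between 109 and 126 bp. Read depth is unknown, and a list with fewer or stricter peaks leaves more regions closed. Labels could be checked against markers only at the level of peaks. Of 24 core pluripotency genes, 22 had a peak within 1 kb of either end in hPSC and in DE, and 20 or 21 did in each later list. Of 20 neural ectoderm genes, 20 had one in hPSC and 19 or 20 in each other list, so peaks at gene ends did not separate the populations.

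The regions can be read as sequence where one overlaps the start window of a RefSeq gene, which runs from 250 bases before the start to 50 after it. The stretches shown first carry letters that POU factors such as OCT4 are known to bind. Each gives the bases before the start that lie inside the region, 5′ to 3′ on the strand of the gene, from RefSeq GRCh38.p14. Capitals mark the octamer ATGCAAAT or the composite core TTGTNATGC on either strand. PPARGC1B encodes a coactivator of nuclear receptors, MMEL1 a membrane metalloendopeptidase, SLC39A13 a zinc transporter, ALDH1A1 an enzyme that makes retinoic acid, TLR9 a receptor for unmethylated DNA, HTR3B a serotonin receptor subunit and NUTM2F a member of the NUT family.
PPARGC1B, chr5:149771690-149771939, plus strand: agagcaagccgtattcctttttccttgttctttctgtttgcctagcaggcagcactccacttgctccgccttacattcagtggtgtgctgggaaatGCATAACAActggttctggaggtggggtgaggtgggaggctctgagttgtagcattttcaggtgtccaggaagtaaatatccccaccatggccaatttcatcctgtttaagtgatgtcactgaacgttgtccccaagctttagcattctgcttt
MMEL1, chr1:2633017-2633266, minus strand: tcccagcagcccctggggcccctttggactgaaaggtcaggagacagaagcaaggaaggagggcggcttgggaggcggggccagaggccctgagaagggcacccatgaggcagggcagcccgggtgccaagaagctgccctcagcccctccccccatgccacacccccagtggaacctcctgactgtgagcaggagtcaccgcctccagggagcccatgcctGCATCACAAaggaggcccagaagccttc
SLC39A13, chr11:47407026-47407186, plus strand: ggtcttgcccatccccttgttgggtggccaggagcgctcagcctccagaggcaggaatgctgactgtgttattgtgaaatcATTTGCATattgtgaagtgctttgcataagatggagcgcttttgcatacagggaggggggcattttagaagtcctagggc
ALDH1A1, chr9:72953054-72953303, minus strand: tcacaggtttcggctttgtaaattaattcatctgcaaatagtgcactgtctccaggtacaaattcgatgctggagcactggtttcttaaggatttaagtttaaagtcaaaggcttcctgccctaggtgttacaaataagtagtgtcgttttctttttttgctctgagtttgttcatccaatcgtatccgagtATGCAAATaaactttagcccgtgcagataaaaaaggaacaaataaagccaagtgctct
TLR9, chr3:52225646-52225882, minus strand: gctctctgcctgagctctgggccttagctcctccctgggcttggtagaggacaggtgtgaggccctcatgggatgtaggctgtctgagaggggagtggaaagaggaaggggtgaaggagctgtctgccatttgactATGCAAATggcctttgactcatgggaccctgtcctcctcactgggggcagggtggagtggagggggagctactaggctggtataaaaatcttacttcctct
HTR3B, chr11:113904736-113904795, plus strand: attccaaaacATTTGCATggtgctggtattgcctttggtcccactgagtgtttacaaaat
NUTM2F, chr9:94328645-94328887, minus strand: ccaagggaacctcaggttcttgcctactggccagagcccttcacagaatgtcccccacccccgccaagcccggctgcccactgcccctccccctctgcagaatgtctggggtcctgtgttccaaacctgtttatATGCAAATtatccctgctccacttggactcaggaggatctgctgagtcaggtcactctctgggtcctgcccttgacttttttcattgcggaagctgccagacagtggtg
The PPARGC1B and MMEL1 stretches hold the composite core and the other 5 the octamer.

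The next 4 stretches were picked from protein-coding starts where both the hPSC and the DE peak were among the widest, and they show how differently such starts are built. EPS8L1 and SLC7A7 rank above TCL1A by the narrower peak and are not printed, so the 4 are no sample of the kinds of gene. EDARADD encodes an adaptor of the ectodysplasin receptor, TDRD5 a Tudor protein of the germ line, TCL1A a coactivator of AKT known from germ cells and lymphocytes, and DYNC2I1 an intermediate chain of the ciliary dynein. No capitals are used, since none holds the octamer or the composite core.
EDARADD, chr1:236348081-236348258, plus strand: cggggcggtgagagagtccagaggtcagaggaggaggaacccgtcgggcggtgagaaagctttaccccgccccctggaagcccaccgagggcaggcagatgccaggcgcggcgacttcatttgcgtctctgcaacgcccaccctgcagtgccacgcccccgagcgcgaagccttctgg
TDRD5, chr1:179591538-179591612, plus strand: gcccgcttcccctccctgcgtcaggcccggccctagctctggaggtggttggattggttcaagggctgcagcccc
TCL1A, chr14:95714126-95714375, minus strand: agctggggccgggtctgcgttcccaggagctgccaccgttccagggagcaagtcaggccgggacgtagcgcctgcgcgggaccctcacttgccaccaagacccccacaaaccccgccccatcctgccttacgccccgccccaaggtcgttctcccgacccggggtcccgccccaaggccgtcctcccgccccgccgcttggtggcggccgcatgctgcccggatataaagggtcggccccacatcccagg
DYNC2I1, chr7:158838995-158839244, plus strand: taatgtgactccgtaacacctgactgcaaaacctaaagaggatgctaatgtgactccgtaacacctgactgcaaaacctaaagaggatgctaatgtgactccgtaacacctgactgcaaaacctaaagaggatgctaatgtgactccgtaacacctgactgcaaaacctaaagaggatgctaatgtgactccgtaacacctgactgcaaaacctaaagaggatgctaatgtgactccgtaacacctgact
The TCL1A start window had 26 CpG dinucleotides and a GC content of 70.7%, and that of EDARADD had 23 CpG and 65.7%. The DYNC2I1 stretch repeated a unit of 45 bases along its whole length. The printed bases are thus a tandem repeat. The region held an hPSC peak of 1118 bp and a DE peak of 712 bp, and its sequence beyond the start window was not available.

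Of the 151028 regions open in both early lists, 78808 (52.2%) were open in all 8 later lists. Regions open in some later lists and not in others were fewer for each number of lists. There were 7629 regions open in 1 later list, 6787 in 2, 6727 in 3, 6737 in 4, 7756 in 5, 9472 in 6 and 13974 in 7. The 13138 regions closed in all later lists thus outnumbered each class from 1 to 6 later lists. Among the regions with a peak in a single early list, 21899 were open in hPSC alone and 26012 in DE alone. Of the regions open in each early list, the group made up 6.81% in hPSC and 5.88% in DE.

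**Figure D1:**
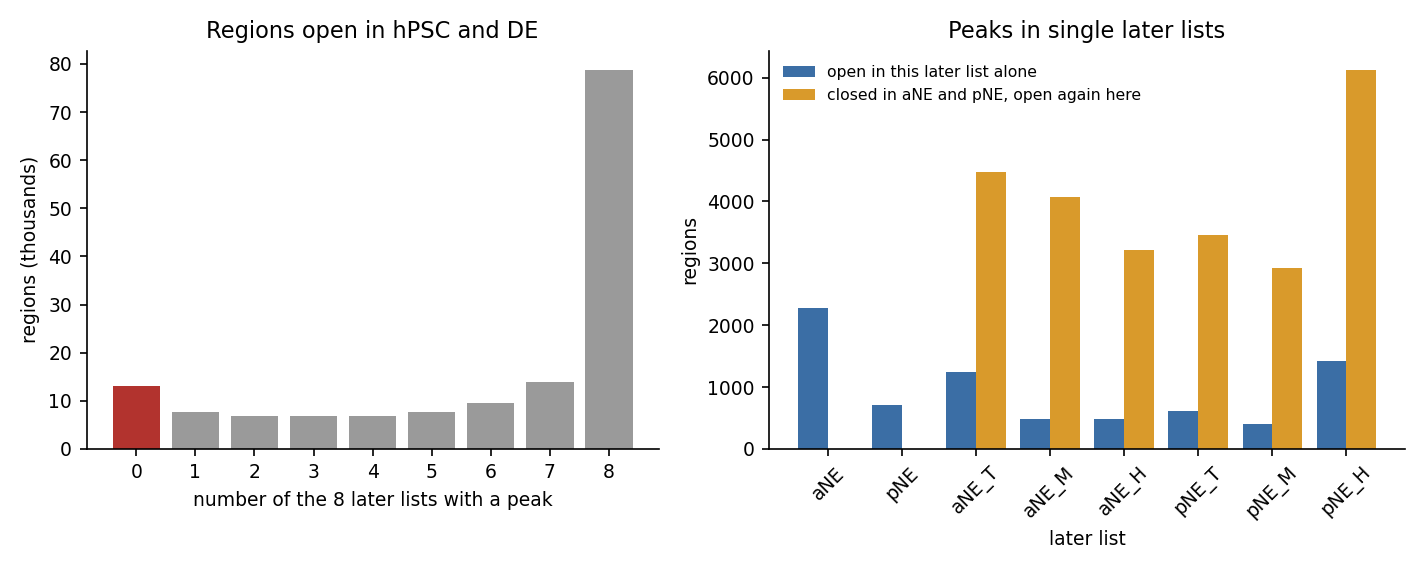
Left, number of regions open in hPSC and DE by how many of the 8 later lists had a peak there; the red bar is the 13138 regions closed in all. Right, for each later list, regions open in that later list alone (blue, highest in aNE with 2284) and regions closed in aNE and pNE and open again in that day 4 list (orange, highest in pNE_H with 6130).

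The regions just outside the rule had a peak in exactly 1 later list. Of these 7629, aNE held 2284 (29.9%), which was more than any other list although aNE was the shortest. The pNE_H list held 1427, aNE_T 1239, pNE 709, pNE_T 608, aNE_M 488, aNE_H 480 and pNE_M 394. Leaving aNE out of the rule would have given 15422 regions and leaving out pNE_M 13532.

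Loss by day 2 was not final in the lists. Of 24314 regions open in hPSC and DE and closed in both aNE and pNE, 54.0% were closed in all 6 day 4 lists as well, which makes them the regions described here. The other 11176 (46.0%) had a peak again in at least 1 day 4 list. Of these 4636 were open in exactly 1 day 4 list and 202 in all 6. The pNE_H list, the longest, held 6130 of them, aNE_T 4475, aNE_M 4067, pNE_T 3463, aNE_H 3209 and pNE_M 2929. A region closed on day 2 could also have missed the peak threshold there, which cannot be told apart from closing without values per library. In the reverse order, 567 regions were open in hPSC, DE, aNE and pNE and in no day 4 list. That count asks for agreement of all lists of a day, so its counterpart is the 202 above and not the 11176.

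Peaks in the regions closed after day 1 were narrow. The hPSC peak had a median width of 201 bp (quartiles 148 and 298, highest 1515) and the DE peak of 193 bp (141 and 279, highest 1560). In regions open in all 8 later lists the medians were 502 and 518 bp. They were 214 and 218 bp with 1 later list and 269 and 299 bp with 7. Regions open in hPSC alone had a median of 154 bp and those in DE alone 157 bp. Narrow peaks were thus not particular to the group. The hPSC peak was the wider one in 7222 regions (55.0%) and the DE peak in 5843, with 73 ties. The share of regions that were closed in all later lists ran with width. It was 25.0% where the narrower of both peaks was under 125 bp, 19.3% from 125 to 150 bp, 14.1% from 150 to 200 bp and 8.33% from 200 to 300 bp. It was 4.43% from 300 to 400 bp, 2.21% from 400 to 600 bp and 0.273% at 600 bp or more. Peaks of the smallest widths lie near the limit of detection of each list, and the part of that limit in the count of regions was not tested. Of all 13138 regions, 1382 had both peaks at 300 bp or wider and 81 at 600 bp or wider.

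**Figure D2:**
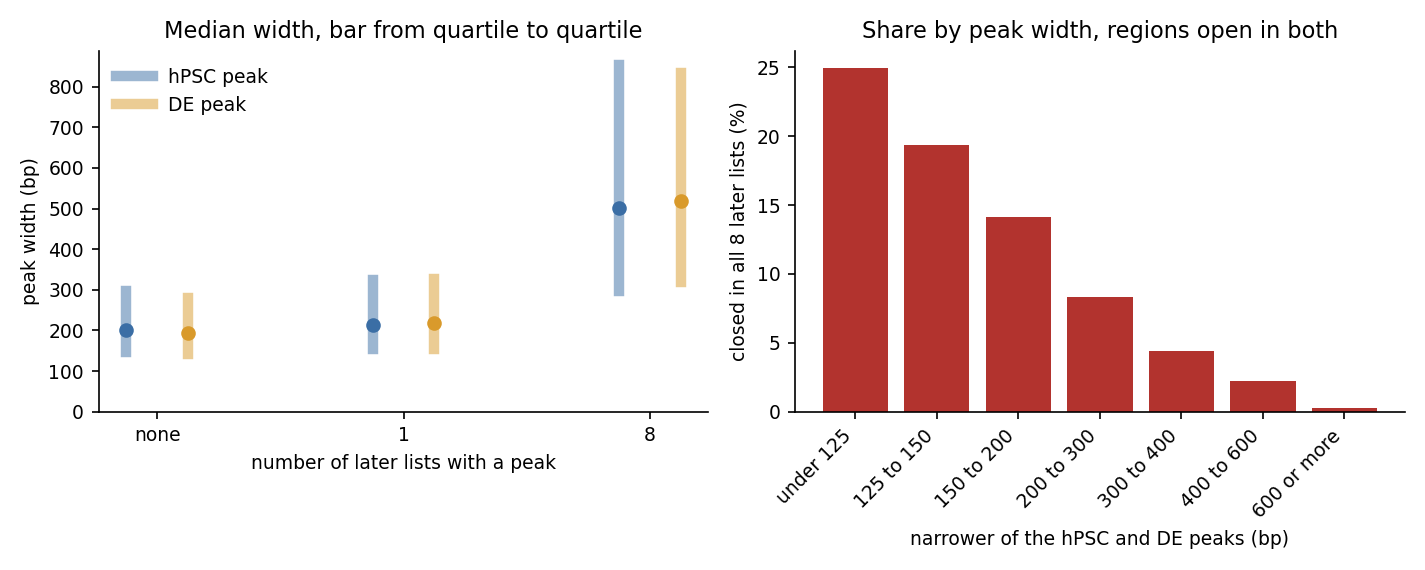
Left, median width in bp of the hPSC and DE peaks (points; bars from the lower to the upper quartile) for regions with a peak in none, 1 or all 8 of the later lists. Right, percent of regions open in both early lists that were closed in all 8 later lists, by the width in bp of the narrower peak, from 25.0% under 125 bp to 0.273% at 600 bp or more.

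Peaks of later lists were dense around the regions, as around others. The median distance to the nearest later peak was 1689 bp (quartiles 652 and 3801), and 4565 regions (34.7%) lay within 1 kb of one. For regions open in hPSC alone the median was 1492 bp and for DE alone 1517 bp, with 39.3% and 39.2% within 1 kb. Within 1 kb of a region open in all 10 lists lay 8.61% of the group, against 10.9% for hPSC alone and 8.87% for DE alone. Only 9 regions were more than 50 kb from any later peak. Neighbouring regions of the group were a median of 106 kb apart. Of the 13138 regions, 8582 (65.3%) lay inside an annotated gene and 4556 between genes. The gene table used gives gene ends without strand or exons, so introns and exons were not separated.

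The group lay near gene ends less often than regions open in all 10 lists, as did other regions that were open in some lists only. It was not depleted there against shifted positions, since 7.82% of the group had a gene end within 1 kb after a move by 10 kb. Within 1 kb of either end of a gene were 8.62% of the 13138 regions (8.15 to 9.11), against 7.94 to 8.98% in the classes with 1 to 7 later lists and 24.2% of the regions open in all 10 lists. Of the regions open in both early lists, 2.67% were closed later when they lay within 1 kb of an end of a protein-coding gene. At 1 to 5 kb this share was 8.67%, at 5 to 20 kb 9.51%, at 20 to 50 kb 9.84%, at 50 to 100 kb 9.29% and beyond that 9.37%. Peaks near gene ends were wide, with a median narrower peak of 894 bp within 1 kb against 235 to 279 bp farther out. Among regions with a narrower peak under 200 bp the share was 18.8% within 1 kb (304 of 1616) and 16.5 to 19.9% in the bins farther out. The interval within 1 kb (17.0 to 20.8) overlapped those of the other bins, and wider peaks were not compared in this way. The genes at those ends also differed in kind from those of all regions open in both early lists. Of the group's regions within 1 kb of a gene end, 36.7% were nearest to a protein-coding gene, 37.6% to a long non-coding RNA gene and 17.0% to a pseudogene. For all regions open in both early lists these were 59.7%, 27.9% and 6.81%. Of those regions near a gene end, 19033 of 25137 were open in all 10 lists. Classes with 1 to 7 later lists were not split in this way. Among genes with a RefSeq start window on a region, protein-coding genes made up 53.3% in the group. This was 52.0% with 1 to 7 later lists and 75.7% in all 10 lists, so the group resembled other partly open regions.

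Every autosome contributed. The share of regions open in both early lists that closed ran from 7.40% on chromosome 19 (6.69 to 8.18) to 10.1% on chromosome 16 (9.38 to 11.0), and from 8.09 to 9.90% on the others.

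Around the genes of the pluripotency network, regions of the group were common but mostly narrow. A gene was counted with 50 kb on either side, and 56.1% of all 19126 protein-coding genes on these chromosomes had at least 1 region of the group in that window. Of the 24 core pluripotency genes 20 did (median 1 region, also 1 over all protein-coding genes). These windows held 36 of the group among 354 regions open in both early lists, a share of 10.2% (7.44 to 13.8). The share over the windows of all protein-coding genes was 8.58%, which lies inside that interval, and regions of the same widths in the whole series would give 8.45%. The core pluripotency windows were therefore not separated from the background.

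The POU5F1 gene, which encodes OCT4, had a region of the group at its own start. Of 234 genes on the lists it was the only one with such a region over either end, and it is singled out here after its values were seen. The region, chr6:31170311-31170789, held an hPSC peak of 239 bp and a DE peak of 378 bp and spans the end of POU5F1 from which it is known to be transcribed. No later list had a peak there. The next region upstream, from 1.10 to 2.60 kb before the start, stayed open in all 10 lists. Enhancers of POU5F1 are known in this stretch. The bases covered by peaks in it were 1508 in hPSC and 1305 in DE. They were 1249 in aNE and 1160 in pNE on day 2. On day 4 they were 1118 in aNE_T, 825 in aNE_M, 465 in aNE_H, 417 in pNE_T, 294 in pNE_M and 706 in pNE_H. All 8 later lists covered fewer bases than either early list, and in the 5 day 4 lists other than aNE_T the single peak was split into 2. A pair of further regions of the group lay upstream of POU5F1 with hPSC and DE peaks of 241 and 136 bp and of 155 and 123 bp. In all, 3 of the 11 regions open in both early lists in the POU5F1 window were of the group.

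CRIPTO, listed under its older symbol TDGF1, encodes a coreceptor of NODAL. Its window held 3 of the group among 16, among them the region with the widest narrower peak of all 13138. That region, chr3:46599092-46600225, lay 25.1 kb after the CRIPTO start, outside any annotated gene, with peaks of 1031 bp in hPSC and 1123 bp in DE. Its nearest protein-coding gene was FAM240A, with an end 12.9 kb away, and which gene it serves was not tested. The nearest later peak was 3379 bp away. The others had peaks of 771 and 133 bp, at 10.7 kb, and of 274 and 281 bp, 29.2 kb before the start. DNMT3B encodes a de novo DNA methyltransferase and had 1 region of the group among 19, with peaks of 806 and 596 bp, 48.8 kb after its start and outside the gene.

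UTF1, a chromatin factor of pluripotent cells, had 4 of 13 regions, all with an hPSC peak wider than the DE peak. The widest of these measured 710 and 112 bp. JARID2, a subunit of Polycomb complex PRC2, had 4 of 43, and POLR3G, a subunit of RNA polymerase III, 2 of 10 with the larger at 609 and 410 bp. ZFP42, the REX1 gene, had 1 of 12 at 362 and 404 bp, and SALL4, a zinc-finger factor, 1 of 9 at 113 and 412 bp. LIN28B, which blocks let-7 maturation, had 2 of 15, and its paralog LIN28A 1 of 16. FOXD3 had 2 of 11, ZSCAN10 2 of 21, TRIM71 2 of 21, PODXL 2 of 17 and DNMT3L 2 of 15. TERT had 1 of 12 and TERF1 1 of 13. DPPA2 and DPPA4 are neighbours and shared a single region of 296 and 153 bp. SOX2 had 1 of 16 regions, of 162 bp in hPSC and 112 bp in DE. The windows of NANOG (10 regions open in both early lists), PRDM14 (13), L1TD1 (11) and VRTN (20) held none.

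**Figure D3:**
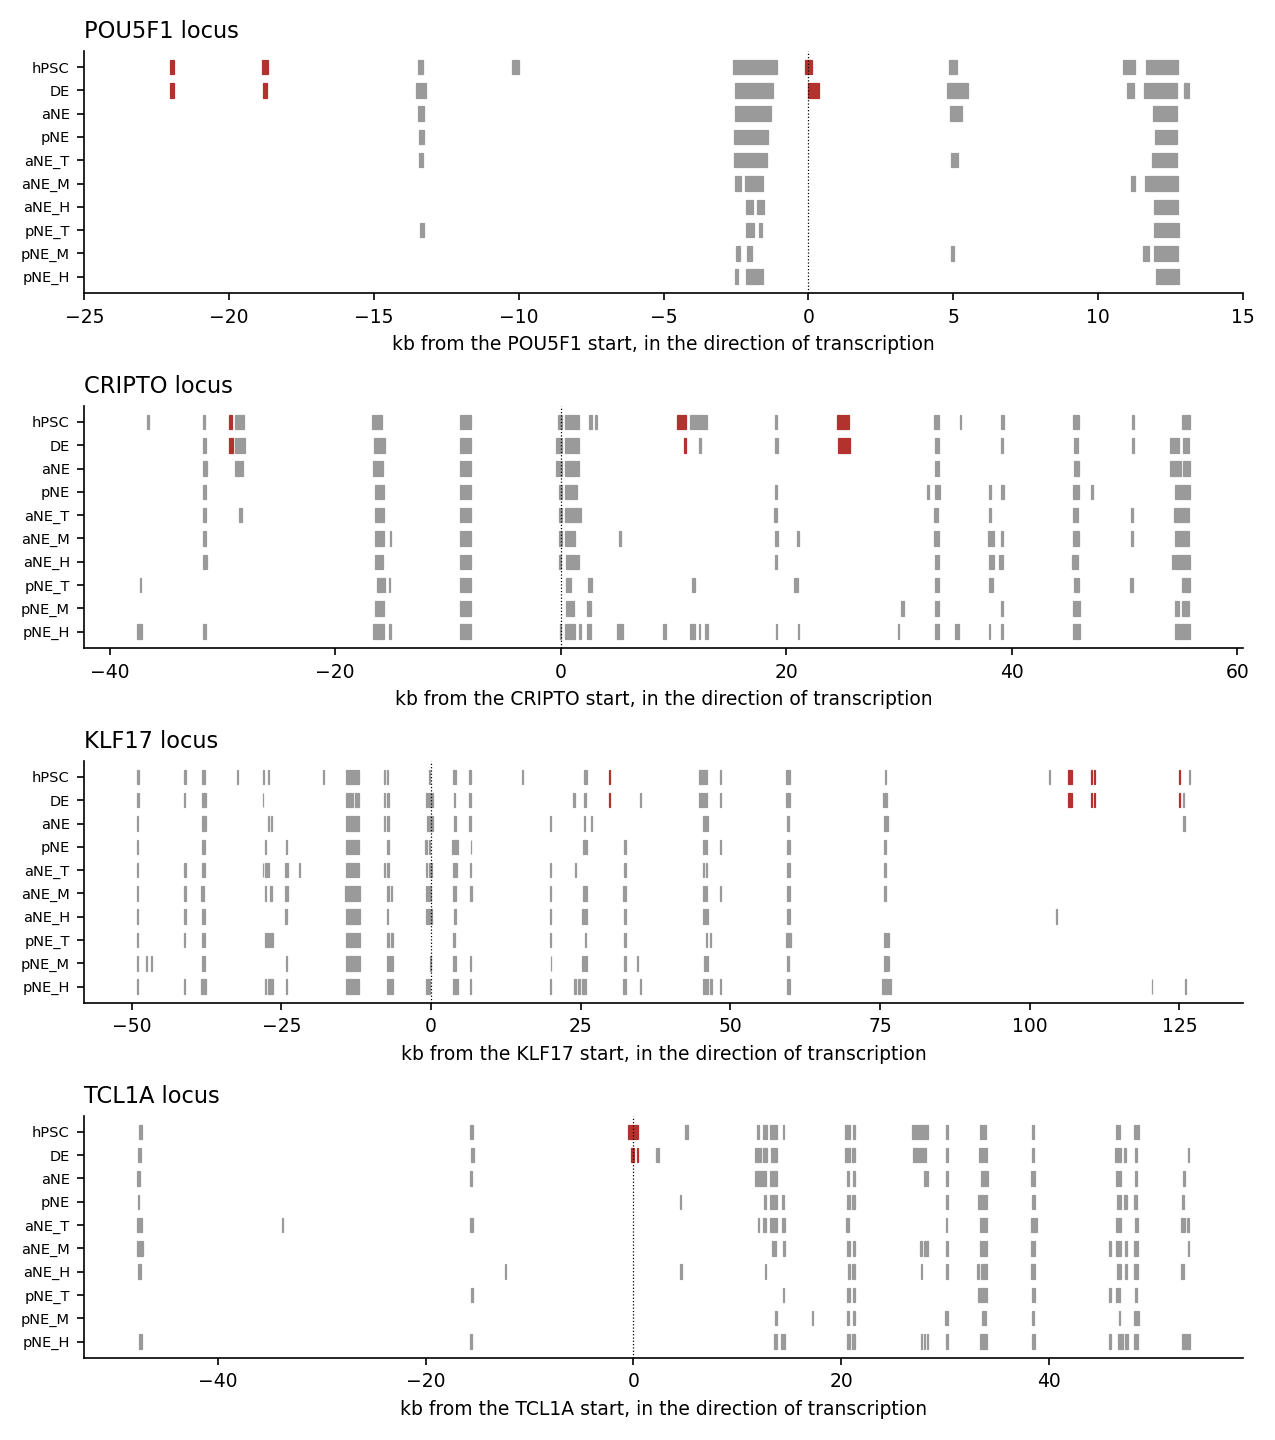
Peaks of the 10 lists around POU5F1, CRIPTO, KLF17 and TCL1A by distance in kb from the gene's start (dotted line), drawn to scale with a thin outline; red peaks belong to regions open in hPSC and DE alone and grey peaks to all other regions. The POU5F1 and TCL1A starts carry red peaks in the hPSC and DE rows and none in the later rows, while the CRIPTO start stays grey and the widest red peaks of its locus lie 25.1 kb after it.

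Genes known from naive pluripotency and germ cells gave a share of 10.6% (7.20 to 15.5), with 23 of the group among 216 regions and 11 of 15 genes with at least 1. The rate at the same widths over the series was 8.27%, inside that interval. KLF17, a factor of the human naive state, had 5 of 20, of which 4 lay past the end of the gene, between 107 and 125 kb after its start. The widest measured 717 and 637 bp. DPPA3 had 3 of 11, and its neighbour GDF3, a TGF-beta family ligand, shared all 3. SUSD2, a surface marker of naive cells, had 2 of 12 with the wider at 984 and 499 bp. ESRRB, NR5A2, TBX3, TFAP2C and ARGFX had 2 each, and KLF2, KLF4, PRDM1 and NANOS3 none.

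Of the pathways that the DE medium targets, the NODAL, FGF and BMP lists had intervals that held the background and the WNT list did not. The list of NODAL and TGF-beta genes held 25 of 343 (7.29%, 4.99 to 10.5), with a rate of 7.82% at the same widths, and 15 of 22 genes had at least 1. NODAL itself had 3 of 16, the largest 41.3 kb before its start with peaks of 511 and 443 bp. LEFTY1, which encodes a NODAL antagonist, had 3 of 12, of which 2 also lie in the window of its neighbour LEFTY2. TGFB1 had a region of 697 and 592 bp inside the gene. The FGF and ERK list held 25 of 314 (7.96%, 5.45 to 11.5), with 15 of 24 genes. The ligand gene FGF2 had 3 regions, the widest at 804 and 156 bp. The ERK-responsive factor gene ETV5 had a region of 768 and 537 bp inside the gene, and SPRY2, which encodes a feedback inhibitor, had a region of 365 and 345 bp. The BMP list held 21 of 257 (8.17%, 5.41 to 12.2), with 4 at the ligand gene BMP7 and 3 at BMP4. The WNT list was lower, with 17 of 361 (4.71%, 2.96 to 7.41) and 11 of 22 genes. Its interval lies below the 8.58% of all protein-coding genes and just holds the 7.35% expected from its widths.

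The neural ectoderm and the posterior and retinoid lists also held few of these regions. The neural ectoderm list had 12 of 293 (4.10%, 2.36 to 7.02), at 9 of 20 genes, against a rate of 7.95% at the same widths. The list of posterior and retinoid genes had 11 of 342 (3.22%, 1.81 to 5.67), at 8 of 21 genes, against 7.03%. For both lists the interval lay below the background and below the rate at the same widths. With regions given to the nearest gene the neural share was 7.16% (5.28 to 9.63) against 8.7%, with the widest 50% of each list 4.17% (2.03 to 8.35) against 8.10%, and for narrower peaks under 200 bp 11.6% (6.44 to 20.1) against 18.8%. With all lists brought to equal length by width the posterior and retinoid share was 4.35% (2.50 to 7.44) against 6.10%, and these 4 intervals held the background. No list was compared with another by a test, and genes near each other share regions. SOX1 (16 regions open in both early lists), PAX6 (14), ZIC2 (17), SOX11 (10) and HESX1 (11) had none of the group. HOXB1 (19), HOXB4 (23), HOXD4 (19) and CDX1 (18) also had none. OTX2 and ZIC1 had 2 each, with the widest at ZIC1 of 302 and 344 bp. CYP26A1 and CYP26C1, which encode enzymes that break down retinoic acid, are neighbours and shared 3. RARB, a retinoic acid receptor gene, had 2 of 28, one of 577 and 362 bp inside the gene.

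The mesendoderm list had 6 of 157 (3.82%, 1.76 to 8.09), below the 8.58% of all protein-coding genes, with 6.26% at the same widths inside its interval. TBXT, the brachyury gene, had 1 of 7 and GSC 2 of 12, while EOMES, MIXL1, SOX17 and LHX1 had none. The surface and extraembryonic ectoderm list had 17 of 257 (6.61%, 4.17 to 10.3), of which 5 lay inside GRHL2, an epithelial transcription factor gene. TFAP2B had a region of 567 and 542 bp inside the gene. The epithelial adhesion list had 17 of 271 (6.27%, 3.95 to 9.82), spread over 14 of 18 genes. EPCAM had 2 of 13 and CDH1, the E-cadherin gene, none of 18. The list of DNA methylation and chromatin genes had 32 of 327 (9.79%, 7.02 to 13.5). TET3, which encodes an enzyme that oxidises 5-methylcytosine, had 6 of 27, the widest at 588 and 314 bp. KDM4C, a histone demethylase gene, had 4, and DNMT1, which encodes the maintenance methyltransferase, had 3.

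**Figure D4:**
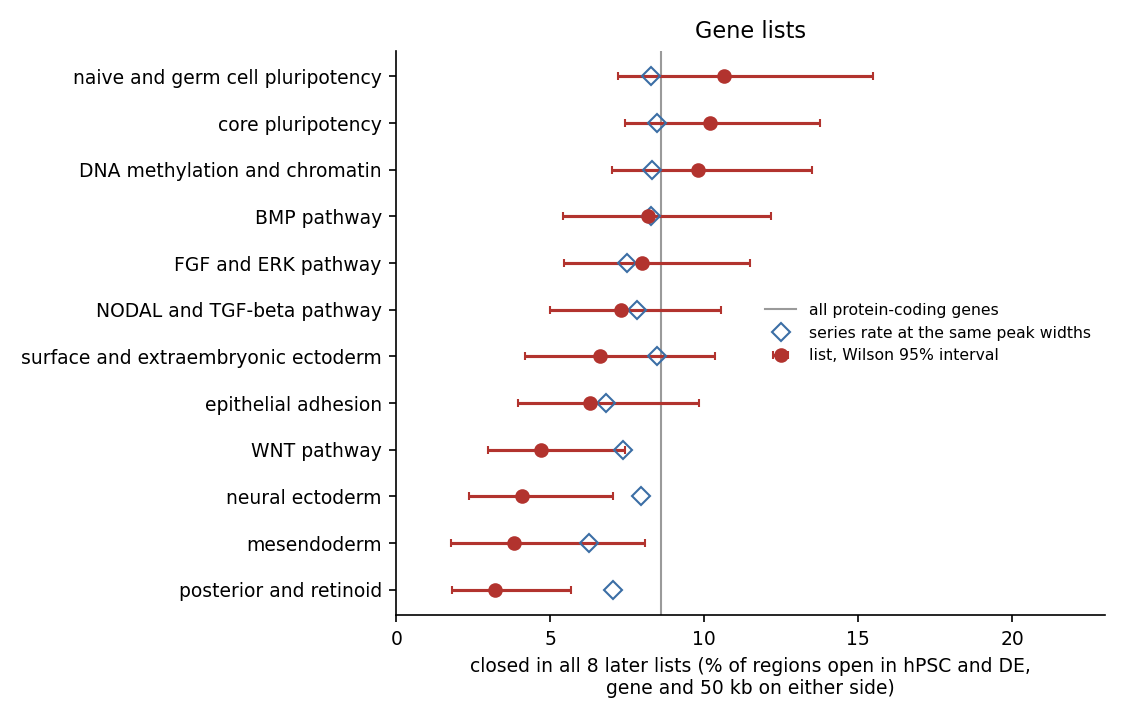
For each of 12 gene lists, percent of regions open in hPSC and DE within the gene and 50 kb on either side that were closed in all 8 later lists (red points with Wilson 95% intervals), beside the rate expected from peak widths (blue diamonds) and the 8.58% over all protein-coding genes (grey line). The neural ectoderm and the posterior and retinoid intervals lie below both, and the highest point, naive and germ cell pluripotency at 10.6%, has an interval that holds both.

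By nearest gene end, the genes with the most regions of the group were AUTS2 and RBFOX1. Both are over 1 Mb long, have roles in brain development and had 24 each, of 157 and 159 regions open in both early lists. PTPRN2 had 18 of 109, CDH4 17 of 104, XYLT1 16 of 68 and KAZN 15 of 104. RAB6C (14 of 67), BUD13 (14 of 79), MAGI1 (14 of 87), ERC2 (14 of 92) and NTM (14 of 125) followed. SMOC2 (12 of 57), DPP10 (12 of 66), PTPRM (12 of 80), NRXN3 (12 of 101) and CAMTA1 (12 of 105) had 12 each. DSCAM (11 of 36), MYOM2 (11 of 36) and CALN1 (11 of 38) had 11 each. RAB6C (3.07 kb) and BUD13 (24.8 kb) are short genes, and a region far from any gene counts for the nearest. Among genes with at least 10 regions open in both early lists, the highest share was at SGSM3, with 8 of 12 (66.7%). MAP3K21 had 5 of 11, SLC6A5 5 of 12, LOC105375116 6 of 15 and VSTM2A 7 of 18. KCNT1 and PIAS1 had 5 of 13 each, and BEND4, COL17A1 and SERPINB6 4 of 10 each. With so few regions per gene these shares carry wide counting error, and they are the top of many genes ranked.

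The group was spread over many windows of the genome. Of the windows of 100 kb that were counted, 15776 held none of the group and 6572 held 1 region. A further 2113 held 2, 555 held 3, 127 held 4, 25 held 5 and 7 held 6. Crowding beyond an even spread was not tested. The densest windows are the top of many ranked, and the share over all regions open in both early lists was 8.7%. The 7 densest windows included chr22:40400001-40500000 at SGSM3 and MRTFA, where 6 of 8 regions open in both early lists were of the group. The window chr6:29700001-29800000 at HLA-F also had 6 of 8. The others were at TNRC6A (6 of 10), QSER1 (6 of 14), ANKRD11 (6 of 18) and at places with no protein-coding gene on chromosome 6 (6 of 10) and chromosome 1 (6 of 16).

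The regions with the largest narrower peak are those furthest from the smallest widths. After the region in the CRIPTO window, nearest to FAM240A, came chr1:171298426-171299487, 13.0 kb from FMO1, with 992 bp in hPSC and 1006 bp in DE. The next was chr1:224607087-224607992 inside CNIH3, which encodes an auxiliary AMPA receptor subunit, with 886 and 891 bp and no later peak within 7717 bp. Then followed chr7:12529761-12530820 inside C7orf78 (882 and 933 bp) and chr1:87099902-87100880 inside HS2ST1 (874 and 918 bp). The regions chr1:29549683-29550886, between genes (1192 and 860 bp), and chr14:61238531-61239713 inside PRKCH (1183 and 854 bp) were each over 1 kb from a later peak. At 2 of the 10 widest a later peak lay close by. It was 96 bp from chr7:157794624-157795833 inside PTPRN2 (1210 and 871 bp) and 240 bp from chr6:41171311-41172484 near TREM2 (1174 and 818 bp).

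Few starts of genes fell in the group. Of 33725 RefSeq start windows of 300 bases, 143 (0.424%) were overlapped, by 133 regions, for 73 protein-coding and 64 long non-coding RNA genes. The start itself lay inside a region of the group for 60 protein-coding genes. RefSeq start windows were at hand for 15101 of 19126 protein-coding genes and for none on chromosome 8 or for POU5F1. The 143 windows had a median GC content of 56.0% and a median of 6 CpG dinucleotides. Windows open in all 10 lists had 65.7% and 26, and windows on regions with 1 to 7 later lists had 53.7% and 6. The starts that closed were thus poorer in CpG than the starts open throughout, and close in this to other starts open in part of the lists.

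The coding starts with the largest narrower peak, after DYNC2I1 and EDARADD, were those of TDRD5 with peaks of 844 and 392 bp in hPSC and DE, EPS8L1 with 384 and 450 bp, SLC7A7 with 374 and 377 bp, PPARGC1B with 345 and 392 bp, TCL1A with 926 and 342 bp and C9 with 465 and 300 bp. EPS8L1 encodes a relative of the EGF receptor substrate EPS8, SLC7A7 an amino acid transporter subunit and C9 a component of complement. SERPINB6, which encodes a protease inhibitor, was the only gene ranked above by number or share with its start window in the group, with peaks of 249 and 129 bp.

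Motifs were counted as exact letters on either strand in these windows. The octamer ATGCAAAT was in 8 of the 143 windows (5.59%, 2.86 to 10.7), against 2.37% of windows on regions with 1 to 7 later lists, 1.29% of windows open in all 10 lists and 1.75% of all 33725 windows. The 8 windows belonged to 7 genes: SLC39A13, ALDH1A1, TLR9, HTR3B and NUTM2F, whose sequences are given above, and the non-coding genes LOC124902798 and LOC105372789, the latter with 2 windows. The composite core TTGTNATGC was in 3 windows (2.10%, 0.716 to 5.99), of PPARGC1B, MMEL1 and LOC101927817, against 1.06% with 1 to 7 later lists, 0.253% open in all 10 lists and 0.578% of all windows. The SOX letters ACAATGG were in 6.29% (3.35 to 11.5), against 3.96% with 1 to 7 later lists, 2.05% open in all 10 lists and 3.21% of all windows. The KLF letters GGGNGTGGC were in 9.79% (5.92 to 15.8), against 5.54%, 6.78% and 5.10% in the same order. The ESRR letters TCAAGGTCA were in 2 windows, both on 1 region. With 143 windows each of these counts is small. Windows of neighbouring starts overlap, so the letters were also counted once for each of the 133 regions. A region counted where its start windows held the letters, also where these lay outside the region. The windows of 7 regions then held the octamer (5.26%, 2.57 to 10.5), against 2.60% of regions with 1 to 7 later lists and 1.65% of those open in all 10. Those of 11 held the KLF letters (8.27%, 4.68 to 14.2), against 5.67% and 8.16%. Those of 3 held the composite core (2.26%, 0.770 to 6.42), against 1.15% and 0.364%, and those of 8 the SOX letters (6.02%, 3.08 to 11.4), against 4.23% and 2.65%. All 4 intervals held the share of regions with 1 to 7 later lists, so none of these letters was separated from that class. The octamer of LOC105372789 is counted here but lies in its window outside the region itself.

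Letters typical of CpG-rich promoters were rare or absent, as in windows with 1 to 7 later lists. The ETS letters CCGGAAGT were in 1 window (0.699%, 0.124 to 3.85), against 6.76% of windows open in all 10 lists and 1.14% with 1 to 7 later lists. The NRF1 letters GCGCATGCG and the YY1 letters AAGATGGCG were in none, with an upper Wilson bound of 2.62%, against 3.03% and 2.89% of windows open in all 10 lists and 0.088% and 0.18% with 1 to 7 later lists. The FOXH1 letters TGTGGATT were in none either, against 0.812% of all windows. The letters for TFAP2 (GCCNNNGGC) were in 20.3%, TEAD (GGAATG) in 15.4%, ZIC (CAGCAGG) in 15.4%, AP-1 (TGANTCA) in 9.79% and OTX and GSC (TAATCC) in 7.69%. The CTCF core (AGNGGGCNC) was in 6.99%, GRHL (AACNNGTT) in 5.59% and FOX (TGTTTAC) in 4.90%. The homeobox letters TAATTA were in 2.80% of the windows. Those of TCF and LEF, which read ATCAAAG, were in 2.10%. The GATA factors, known from mesendoderm and blood, had their letters AGATAAG in 1.40%. Over all windows the shares were 23.3% for TFAP2, 14.0% for TEAD, 10.5% for ZIC, 7.67% for AP-1 and 6.37% for OTX and GSC. They were 8.83% for CTCF, 3.53% for GRHL, 3.45% for FOX and 4.91% for homeobox. For TCF and LEF the share was 2.60% and for GATA 2.66%. Windows open in all 10 lists held the TFAP2 letters in 32.6%. The intervals of TEAD, ZIC, AP-1, OTX and GSC, CTCF, GRHL, FOX, homeobox, TCF and LEF, TFAP2 and GATA held the share among windows with 1 to 7 later lists. They held the share over all windows as well. A match is a description of letters and not a bound site.

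**Figure D5:**
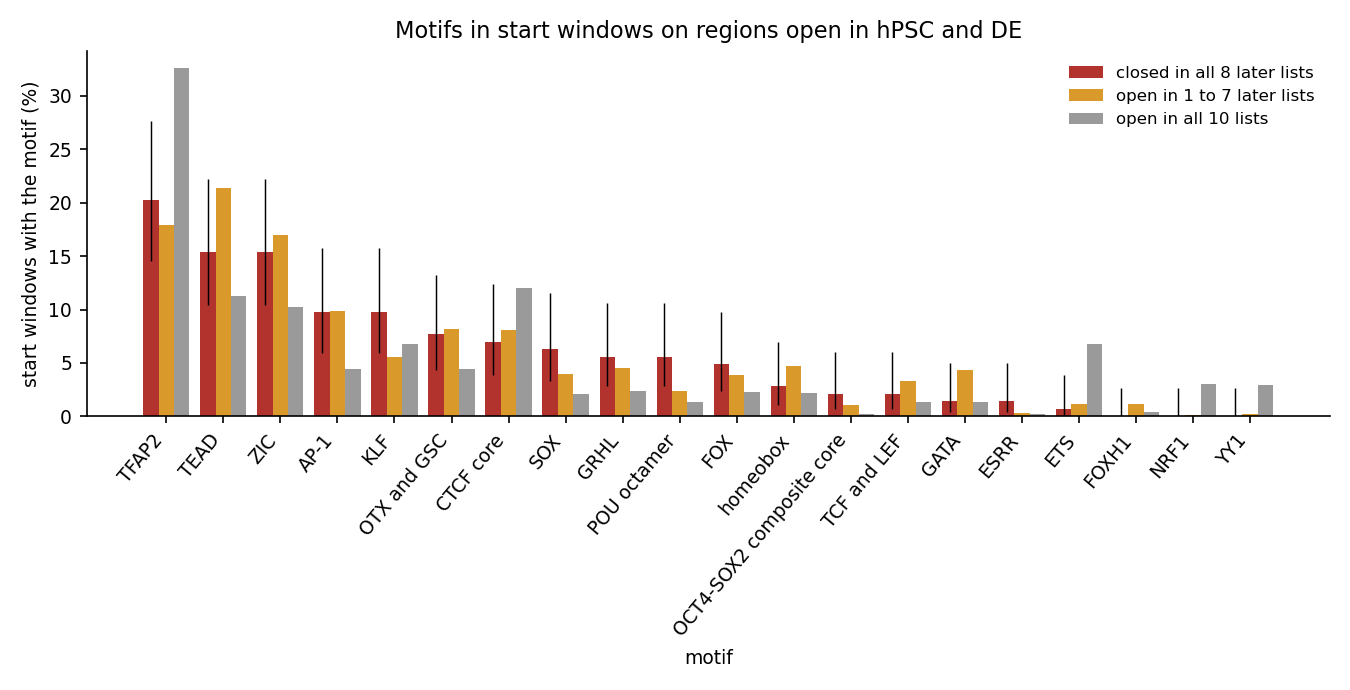
Percent of 300-base RefSeq start windows that hold each of 20 motifs on either strand, for windows on regions closed in all 8 later lists (red, 143 windows, with Wilson 95% intervals), on regions open in 1 to 7 later lists (orange) and on regions open in all 10 lists (grey). The octamer is at 5.59%, 2.37% and 1.29% in this order, and the ETS, NRF1 and YY1 bars are highest in the windows open in all 10 lists.

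Of 1461 miRNA hairpins on these chromosomes, 381 lay within 500 bp of a region open in both early lists. For regions of the group, which were 8.7% of the regions open in both early lists, 17 hairpins did. Of these 6 overlapped a region, and among them MIR550A2 and MIR550B2 have the same position. As examples, MIR375, known from pancreatic islets, lay 26 bp from a region with peaks of 272 and 212 bp, and MIR6744 overlapped one with peaks of 710 and 128 bp.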

How the data were processed

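Peak positions were deposited by the authors as 10 lists of 3 columns (sequence name, start, end), 1 per group of 3 replicates, with no score, signal or p-value. The submitters' processing notes name FastQC, Bowtie2, MACS2, bedtools, featureCounts, edgeR and deepTools and the build hg38, without versions or roles. How replicates were combined and which threshold was used is not given in the sources used here. The peaks of chromosomes 1 to 22 were merged across lists at 1 bp of overlap, and regions were sorted by the lists with a peak. Gene positions came from a RefSeq table and start windows from RefSeq sequences, both GRCh38.p14. As a check of the build, 9.89% of all regions had a gene end at 1 kb or less, and 7.09% did after a move by 10 kb. For CRIPTO the older symbol TDGF1 was used, and 3 of 237 list genes lie on chromosome X. The rate at the same widths gives each region the share found in its bin of narrower peak width over all regions open in both early lists.

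The members and gene lists were chosen with earlier results of these data known. Named genes were the 20 protein-coding genes with most regions by nearest end, the 10 with the highest share at 10 or more regions and all core pluripotency genes. The plan also named up to 4 genes per list with the most regions, which the text does not follow strictly. More list genes are named, several with none of the group, and some with as many regions as named ones are left out. Named regions were the 10 with the largest narrower peak and the densest windows of 100 kb. A named gene and a named region are not reported here. All 20 motifs are given. The merging was tested on simulated data. Shares have Wilson intervals at 95%. Python 3.11.15, pandas 2.3.3, numpy 2.4.6 and statsmodels 0.14.6 were used.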

Additional observations from a re-analysis of the deposited data

Results flagged for a closer look

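Chromosome X and the alternate, unplaced and other sequences outside chromosomes 1 to 22, X and Y were not part of the comparison, and the same rule found signal there. On chromosome X it gave 515 regions, 9.51% of the 5418 open in both hPSC and DE. On the other sequences it gave 1530 regions, 14.2% of 10771. Of the 1530, 334 were on alternate sequences of chromosome 6, 16.8% of the 1992 open in both early lists there. On chromosome 6 itself the share was 8.84%. POU5F1 and the HLA-F window lie on chromosome 6, and whether alternate sequences bear on their peaks was not tested. Alternate sequences repeat parts of the main chromosomes.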

How the results depend on the processing

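A value was called moved where it left its own counting interval, and a count where it changed by over 1.5 times. The count of 13138 regions was 6579 with the widest 50% of each list, 7075 with lists brought to equal length by width, and 8573 when regions within 1 kb of a later peak were left out. It stayed within 1.5 times under the other settings, and lay between 13532 and 15422 without each later list in turn. The share of regions open in both early lists that closed was 15.3% where peaks had to cover 50% of a region, 8.41% with the widest 50%, 6.33% at equal length, 8.15% with windows of 500 bp, 5.68% away from later peaks and 7.92% where the hPSC and DE peaks overlapped by 50% of the wider. The median width of 262 bp became 293, 464, 361, 537, 265 and 228 bp in the same order. The share within 1 kb of a gene end was 9.42% with the widest 50%, 9.23% with windows of 500 bp and 7.98% away from later peaks, and 28.9% lay within 5 kb.

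Differences of gene lists from all protein-coding genes are in percentage points. At 50% coverage they were -8.43 for mesendoderm, -8.83 for neural ectoderm and -7.98 for posterior and retinoid genes. Posterior and retinoid genes were at -1.75 at equal length and, for regions with a narrower peak under 200 bp (a setting added after seeing the data), at -11.7, with neural ectoderm at -7.19. Neural ectoderm was at -1.54 by nearest gene. Both stayed below the background in all 10 settings, as did WNT, mesendoderm, epithelial adhesion and surface and extraembryonic ectoderm genes. The neural interval lay wholly below it in 7 of them and the posterior and retinoid interval in 9. Signs changed for core pluripotency by nearest gene (-0.37), for naive and germ cell pluripotency at equal length (-0.40), for BMP at 50% coverage (0.89), at equal length (1.63), at 50% overlap (0.55) and by nearest gene (0.041), for NODAL and TGF-beta with the widest 50% (0.068) and for narrow peaks (0.34), and for FGF and ERK with windows of 500 bp (0.093), at 50% overlap (0.46) and for narrow peaks (2.30).

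No paired analysis was possible because each group has 1 peak list, and no value comes from a test. Read depth and the peak threshold of each list are unknown, and every count of closed regions rests on them.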
